A study of Mus musculus with 192 samples.

Results

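The 10 genes described here, Flt1, Kdr, Cdh5, Abcb1a, Cldn5, Pecam1, Tek, Slc2a1, Podxl and Cxcl12, are genes of blood vessel endothelium that were measured in mouse hippocampus. They were taken by their GENCODE vM21 symbol, and all 10 of 10 were found among the 41128 genes of the deposited count table and passed the filter on low counts. These genes and the other gene lists below were chosen with earlier results of these data known. Shares of them called, set beside the share of all genes, are therefore descriptions and not tests of enrichment. Wild-type (WT) mice were compared with zQ175 mice, whose own Htt gene carries an expanded CAG repeat knocked in to model Huntington's disease. Small interfering RNAs (siRNAs) lower the RNA they pair with: HTT-10150 is directed against full-length HTT, and HTT-634 and HTT-486 were given together against HTT1a, a short transcript that ends within the first intron. Controls were untreated mice and mice given a non-targeting siRNA named NTC. The regimen named 2[4]6 gave treatment at 2 months of age and took the hippocampus at 6 months. Regimen 6[4]10 gave it at 6 months, with tissue taken at 10 months. Regimen 2.6[8]10 gave it both at 2 and at 6 months, again with tissue from 10 months. Each combination of 3 regimens, 2 genotypes and 4 treatments was 1 of 24 groups of 8 mice, 4 of each sex, and each of the 192 libraries came from 1 mouse. The zQ175 allele is carried in all cells, so the endothelium shares it with neurons and glia, and dose, route and repeat length were not given in the sources used here.

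Endothelial cells line the vessels of the brain, and their tight junctions and transporters form the blood-brain barrier. Vascular endothelial growth factor (VEGF) signals through the receptor encoded by Kdr, while the receptor encoded by Flt1 binds VEGF tightly and limits its signal, and angiopoietins act through the receptor encoded by Tek. Endothelial cells are a small share of hippocampal tissue, so in a bulk library a lower level can come from fewer endothelial cells or from less RNA per cell, and these cannot be told apart.

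Total counts per library ran from 8.44 M to 55.96 M in 2[4]6 (median 27.72), from 13.38 to 41.27 in 6[4]10 (median 24.46) and up to 65.75 in 2.6[8]10 (median 16.52). Levels are in CPM, counts scaled to library size with TMM factors. None of the 12 neuron markers checked was at 0 in any group. In zQ175 mice Htt was lower with HTT-10150 than with NTC in all 3 regimens, by log2 fold changes of -0.44 (adjusted p = 0.0244), -0.69 (0.00542) and -0.92 (6.16e-08) in 2[4]6, 6[4]10 and 2.6[8]10, and the adjusted p of the pair HTT-634 with HTT-486 missed 0.05 in each. In WT mice the Htt values with HTT-10150 were -0.95 (adjusted p = 2.84e-07), -0.55 (0.16) and -1.27 (6.03e-12). Of the 192 libraries, 8 did not match their labelled sex by X- and Y-linked genes. Female_4 and male_4 of the zQ175 HTT-10150 group in 6[4]10 were each called as the other sex, and the rest as neither. Leaving all 8 out kept 9 of the 10 genes called in the comparison described first, but from 2[4]6 this removed only male_1 of the untreated zQ175 group. No mouse of the groups compared there was left out, so this does not show what a wrong sex label would do. In each group 1 to 4 libraries had a mean log2 CPM of choroid plexus markers over 4, and these are called libraries holding choroid plexus transcripts. The others were not free of such transcripts, since the 9 markers summed to at least 26.8 CPM in every library. Results that changed without the libraries over that level are given below.

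Flt1 lies at chr5:147561604-147726011, Kdr at chr5:75932827-75978458 and Abcb1a at chr5:8660077-8748575, on the chromosome that carries Htt, at 112.8, 41.1 and 26.1 Mb from it. Cdh5 is at chr8:104101625-104144511, Cldn5 at chr16:18776847-18778262, Pecam1 at chr11:106654217-106750628, Tek at chr4:94739289-94874976, Slc2a1 at chr4:119108711-119137983, Podxl at chr6:31519488-31563981 and Cxcl12 at chr6:117168535-117181367, all in GRCm38 as annotated in vM21. Counts were summed over whole genes, so they cover exons and both untranslated regions. Flt1, Kdr, Pecam1 and Podxl are on the minus strand and the other 6 on the plus strand. RefSeq promoter windows of GRCm38.p6, 300 bases long and for Flt1, Tek, Cldn5 and Cxcl12 running from 250 bases before the vM21 start to 50 bases from it, were matched for 7 of the 10 genes, all but Cdh5, Pecam1 and Podxl. The window of Flt1 is shown because Flt1 had the largest fold change, that of Slc2a1 because it was the member that did not pass the test in the same comparison, and that of Cxcl12 because it differed between genotypes. Capitals mark AGGAAG or its reverse complement CTTCCT, a form of the site bound by ETS factors, a family that is active in endothelium. Shorter or other forms of that site are not marked.
Flt1 (chr5:147725962-147726261, minus strand): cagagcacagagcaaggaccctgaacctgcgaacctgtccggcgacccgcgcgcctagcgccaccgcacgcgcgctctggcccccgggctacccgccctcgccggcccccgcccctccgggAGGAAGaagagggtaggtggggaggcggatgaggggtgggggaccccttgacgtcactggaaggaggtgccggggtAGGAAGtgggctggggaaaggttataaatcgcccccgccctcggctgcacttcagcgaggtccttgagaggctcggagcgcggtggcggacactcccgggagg
Slc2a1 (chr4:119108495-119108794, plus strand): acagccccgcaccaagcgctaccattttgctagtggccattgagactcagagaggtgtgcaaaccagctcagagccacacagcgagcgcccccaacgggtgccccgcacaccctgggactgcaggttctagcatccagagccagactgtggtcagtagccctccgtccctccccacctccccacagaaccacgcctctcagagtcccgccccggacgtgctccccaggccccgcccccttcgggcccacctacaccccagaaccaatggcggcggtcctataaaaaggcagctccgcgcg
Cxcl12 (chr6:117168285-117168584, plus strand): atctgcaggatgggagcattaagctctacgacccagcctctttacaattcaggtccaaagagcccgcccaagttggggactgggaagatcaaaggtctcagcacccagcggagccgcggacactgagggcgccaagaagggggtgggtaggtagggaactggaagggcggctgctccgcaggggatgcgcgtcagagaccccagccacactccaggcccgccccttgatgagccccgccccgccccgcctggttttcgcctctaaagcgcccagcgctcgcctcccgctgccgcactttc
The Flt1 window held this marked form at 2 places, and those of Slc2a1 and Cxcl12 at none, which does not mean that they lack other forms. Over both strands the marked form was in 2 of the 7 windows, those of Flt1 and Abcb1a, against 35.4% of 32851 RefSeq windows of the same length. The RefSeq window matched to Abcb1a lies 93236 bases before its vM21 start, so it is not the sequence next to that start. TATAAA, the TATA box, or its reverse complement TTTATA was in those of Flt1 and Slc2a1, 2 of 7, against 13.6% of all windows. The Flt1 window was 70.7% G and C with 29 CpG sites, that of Slc2a1 65.3% with 18 and that of Cxcl12 64.7% with 20, where the median over all windows was 52.7% and 7. These are letters in a window and not measured binding.

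Per kilobase of exon, the level over all 192 libraries was highest for Slc2a1, the glucose transporter GLUT1 that astrocytes also make, at 23.45 CPM per kb, and for Cldn5, the main claudin of brain tight junctions, at 20.2 CPM per kb. Cxcl12, a chemokine, followed at 6.08 CPM per kb, Abcb1a, the efflux pump P-glycoprotein, at 5.07, and Podxl, a sialomucin of the luminal surface, at 5.02. The VEGF receptor Flt1 stood at 3.801, the adhesion molecule Pecam1 at 2.77, the angiopoietin receptor Tek at 2.54, the junction cadherin Cdh5 at 2.43 and Kdr at 1.55 CPM per kb. The ratio of the highest to the lowest of the 24 group means ran from 1.31 for Tek to 1.79 for Flt1. The lowest mean was that of zQ175 mice given HTT-634 with HTT-486 in 2[4]6 for 8 of the 10 genes, all but Tek and Cxcl12. For Flt1 the order began with that group at 34.1 ± 5.45 CPM (SD, n = 8) and zQ175 NTC mice of 2[4]6 at 38.6 ± 4.28, and ended with zQ175 HTT-10150 mice of 2[4]6 at 60.7 ± 6.65 and WT mice of 2.6[8]10 given HTT-634 with HTT-486 at 61.0 ± 3.13. The first of these neighbouring pairs lay within the larger of its SDs, and so did the second.

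The question of the first comparison is what the siRNA against full-length HTT did beyond a non-targeting siRNA in zQ175 mice treated at 2 and collected at 6 months. HTT-10150 mice had higher levels of 9 of the 10 genes than NTC mice, against 2.51% of all 16575 genes tested that were raised and 3.57% that changed in either direction. The fold changes of these 9 ran from 0.36 for Pecam1 to 0.65 for Flt1 on the log2 scale, and Slc2a1 did not pass the test. The median over the 10 genes was a log2 fold change of 0.43, and over all genes tested -0.00.

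Among the receptors, Flt1, the VEGF-binding receptor that limits the signal, had the largest fold change. Its level ran from 47.5 through a median of 60.4 to 69.65 CPM in the 8 HTT-10150 mice, and from 31.1 through 39.9 to 43.2 CPM in the 8 NTC mice. The groups did not overlap. The log2 fold change was 0.65 ± 0.08 (SE), with an adjusted p of 3.43e-07 by edgeR. Kdr, which carries the VEGF signal, ran from 14.15 through 16.01 to 17.6 CPM with HTT-10150 and from 9.73 through 11.7 to 14.6 CPM with NTC. It rose by a log2 fold change of 0.41 ± 0.07 (adjusted p = 0.000467), and 5 of the 8 HTT-10150 mice lay above every NTC mouse. Tek, the angiopoietin receptor, ran from 9.59 through 12.98 to 15.3 CPM against 7.25 through 10.4 to 11.4 CPM. Its log2 fold change was 0.38 ± 0.08 (adjusted p = 0.00666), and the lowest HTT-10150 mouse lay inside the NTC range.

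Of the junction genes, Cdh5, the cadherin that holds endothelial cells together, also separated the groups. Cdh5 ran from 9.54 through 11.5 to 13.99 CPM in HTT-10150 mice and from 6.69 through 8.02 to 9.27 CPM in NTC mice. Its log2 fold change was 0.54 ± 0.09 (adjusted p = 0.000124). Cldn5, the tight junction claudin, had overlapping groups, with 22.6 through 31.1 to 36.2 CPM against 18.6 through 22.3 to 31.7 CPM. Its fold change was 0.40 ± 0.09 on the log2 scale (adjusted p = 0.0131), and 3 of 8 HTT-10150 mice exceeded every NTC mouse. Pecam1, an adhesion molecule at cell borders, ran from 13.6 through 17.2 to 19.4 CPM against 11.1 through 13.5 to 15.4 CPM. It rose by 0.36 ± 0.07 (log2, adjusted p = 0.00329), and 7 of 8 HTT-10150 mice lay above the NTC range.

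The transporters differed from each other. Abcb1a, which pumps drugs and lipids back into the blood, ran from 24.1 through 30.8 to 35.3 CPM with HTT-10150 and from 16.25 through 22.99 to 27.8 CPM with NTC. It rose by 0.46 ± 0.09 (log2, adjusted p = 0.00138), with 7 of 8 mice above the NTC range. Abcb1b, its near-identical neighbour that is no member, had means of 5.035 and 5.155 CPM with HTT-10150 and NTC (log2 fold change -0.03), and how the authors' counting divided reads between the 2 copies is uncertain. Slc2a1 ran from 67.99 through 78.4 to 92.1 CPM against 66.1 through 72.7 to 78.6 CPM. The groups overlapped, and its log2 fold change of 0.12 ± 0.07 (95% interval -0.01 to 0.25) did not pass the test (adjusted p = 0.32).

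Podxl, the surface sialomucin, ran from 21.7 through 30.9 to 34.3 CPM with HTT-10150 and from 17.1 through 22.8 to 26.4 CPM with NTC, a log2 fold change of 0.44 ± 0.08 (adjusted p = 0.0013). A single HTT-10150 mouse lay inside the NTC range. Cxcl12, which draws CXCR4-bearing cells to vessels, ran from 45.6 through 57.4 to 66.6 CPM against 33.4 through 39.6 to 45.98 CPM. It rose by 0.51 ± 0.06 on the log2 scale (adjusted p = 3.07e-07), and 7 of 8 mice lay above the NTC range. Male_1 had the lowest mean of the 10 genes among the HTT-10150 mice, 4.52 log2 CPM, with Htt at 153.7 CPM, while male_2 had the highest Htt, 171.8 CPM, and a mean of 4.86. Female_1, with Htt at 123.8 CPM and a mean of 4.81, was the third mouse whose Htt lay inside the NTC range, which began at 121.8 CPM, so 3 of the 8 libraries labelled HTT-10150 did not show Htt below that range. Htt in the other 5 mice ran from 63.9 to 95.4 CPM, and their means of the 10 genes from 4.80 to 4.98 log2 CPM.

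**Figure D1:**
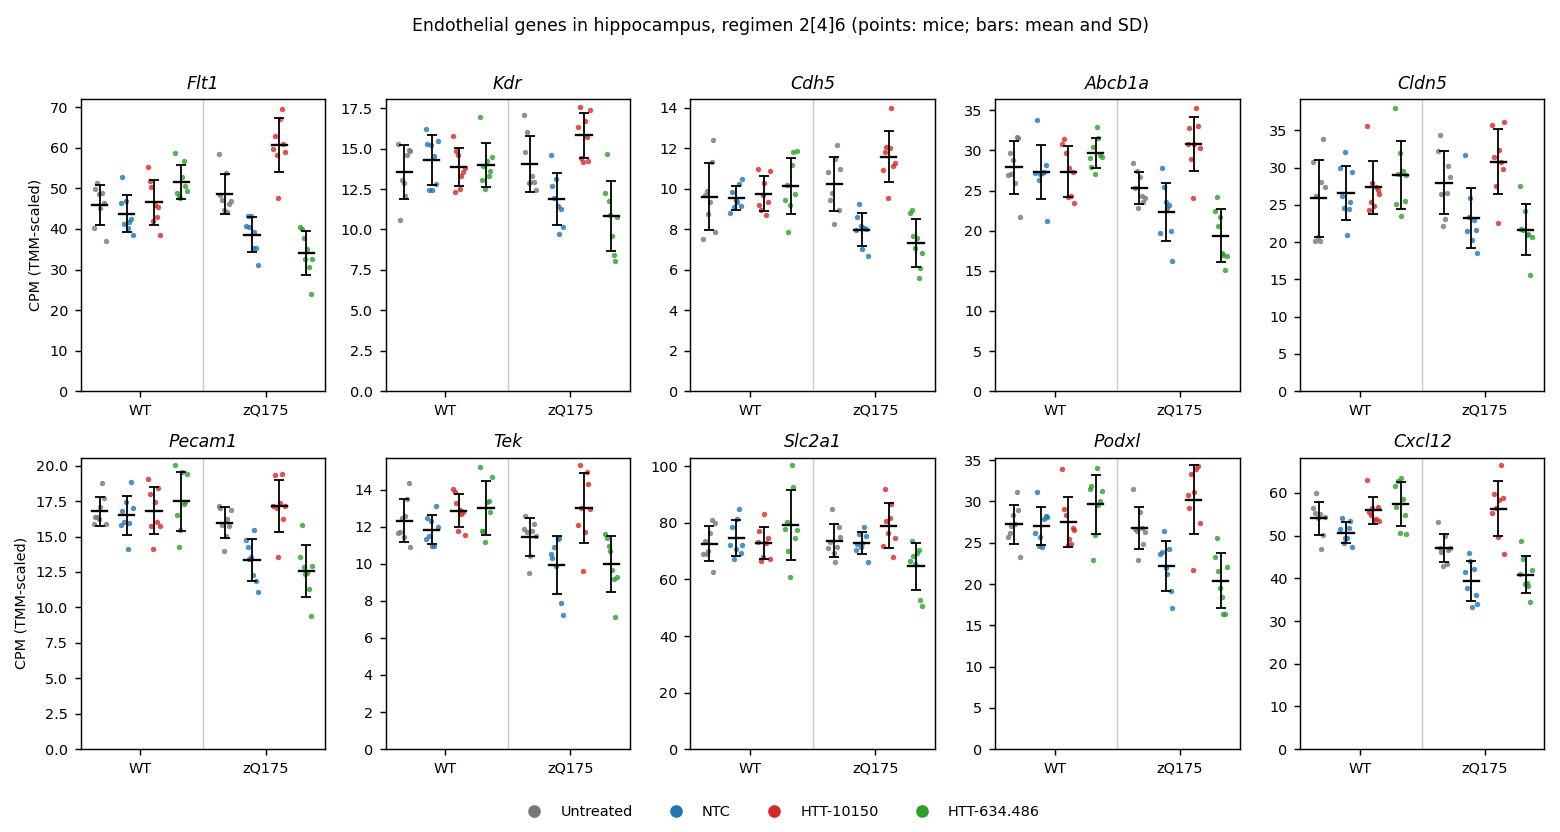
Levels of the 10 endothelial genes in regimen 2[4]6, 1 panel per gene, with CPM from 0 on the y axis, WT groups on the left and zQ175 groups on the right. Points are mice and bars the mean and SD (n = 8 per group); in zQ175 mice HTT-10150 (red) stands above NTC (blue) without overlap for Flt1 and Cdh5, and HTT-634 with HTT-486 (green) has the lowest mean of the zQ175 groups for 8 of the 10 genes, all but Tek and Cxcl12.

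The count was 9 in each fit that left out 1 mouse of either group and without libraries holding choroid plexus transcripts. It was 4 when all mice with replicate label 4 were left out, 2 in females alone (Flt1 and Cxcl12) and 6 in males alone. In females the 10 log2 fold changes were 0.16 to 0.62 and in males 0.07 to 0.68, all positive. These fits held fewer mice, and a difference of this effect between the sexes was not tested.

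The choice of reference mattered for this comparison, since NTC mice themselves stood below untreated mice. By edgeR 0 of the 10 genes were called between NTC and untreated zQ175 mice, against 0.0302% of all genes, but 9 had an unadjusted p under 0.05. DESeq2 called 4 of the 10 and 108 of all genes, and limma-voom 0 and 4. The log2 fold changes were -0.36 to -0.02, all negative. Flt1 ran from 44.1 through 47.0 to 58.5 CPM in untreated mice, all above the highest NTC mouse, with a log2 fold change of -0.34 ± 0.08 that missed the threshold (adjusted p = 0.077). Without the mice of replicate label 3, 5 of the 10 genes were called. Against untreated mice, HTT-10150 had 0 genes called by edgeR, DESeq2 and limma-voom (0.00603% of all genes by edgeR), 7 had an unadjusted p under 0.05, and all 10 log2 fold changes were positive, from 0.10 for Slc2a1 and Pecam1 to 0.31 ± 0.08 for Flt1 (adjusted p = 0.266). The HTT-10150 comparisons with NTC and with untreated mice share the HTT-10150 mice, and those with NTC share the NTC mice.

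Mice given the siRNA pair against HTT1a stood below untreated mice, as NTC mice did. In zQ175 mice of 2[4]6, 8 of the 10 genes were lower with HTT-634 and HTT-486 than in untreated mice. Of all genes 4.55% were lowered and 6.58% changed in either direction. Between the pair and NTC 0 of the 10 genes were called, so this difference was not shown to be particular to the pair. Flt1 ran from 24.02 through 33.8 to 40.4 CPM with the pair, below every untreated mouse, a log2 fold change of -0.52 ± 0.08 (adjusted p = 0.000239). Cdh5 ran from 5.60 through 7.32 to 8.93 CPM against 8.24 through 10.3 to 12.1 CPM in untreated mice and fell by 0.49 ± 0.09 on the log2 scale (adjusted p = 0.00098), with 6 of 8 mice below the untreated range. Kdr, Abcb1a, Cldn5, Pecam1 and Podxl fell by log2 values of 0.35 to 0.40, and Cxcl12 fell by 0.21. Tek (-0.21, adjusted p = 0.119) and Slc2a1 (-0.20, adjusted p = 0.0594) did not pass. This count was 0 in females alone, where the log2 fold changes ran from -0.41 to -0.12. It was 7 in males alone, where they ran from -0.65 to -0.16. It was 2 without mice of replicate label 3 and also 2, Flt1 and Kdr, without libraries holding choroid plexus transcripts. In that last fit the 6 genes that lost their call had log2 fold changes of -0.26 for Cxcl12 to -0.46 for Cdh5, against -0.21 and -0.49 with all libraries.

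Against NTC the pair had 0 genes called by edgeR, DESeq2 and limma-voom (0.0302% of all genes by edgeR), with 3 at an unadjusted p under 0.05 and log2 fold changes of -0.21 to 0.04. Between the active treatments, HTT-10150 was higher than the pair for all 10 genes, against 7.91% of all genes raised and 11.7% changed in either direction. Flt1 differed most, by a log2 fold change of 0.84 ± 0.08 (adjusted p = 1.58e-10), with no overlap. Slc2a1, which had not passed against either reference, ran from 67.99 to 92.1 CPM with HTT-10150 and from 50.6 to 73.4 CPM with the pair, a log2 fold change of 0.30 ± 0.07 (adjusted p = 0.0026). In females alone only Flt1 was called in this comparison, with log2 fold changes of 0.31 to 0.68 over the 10 genes.

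**Figure D2:**
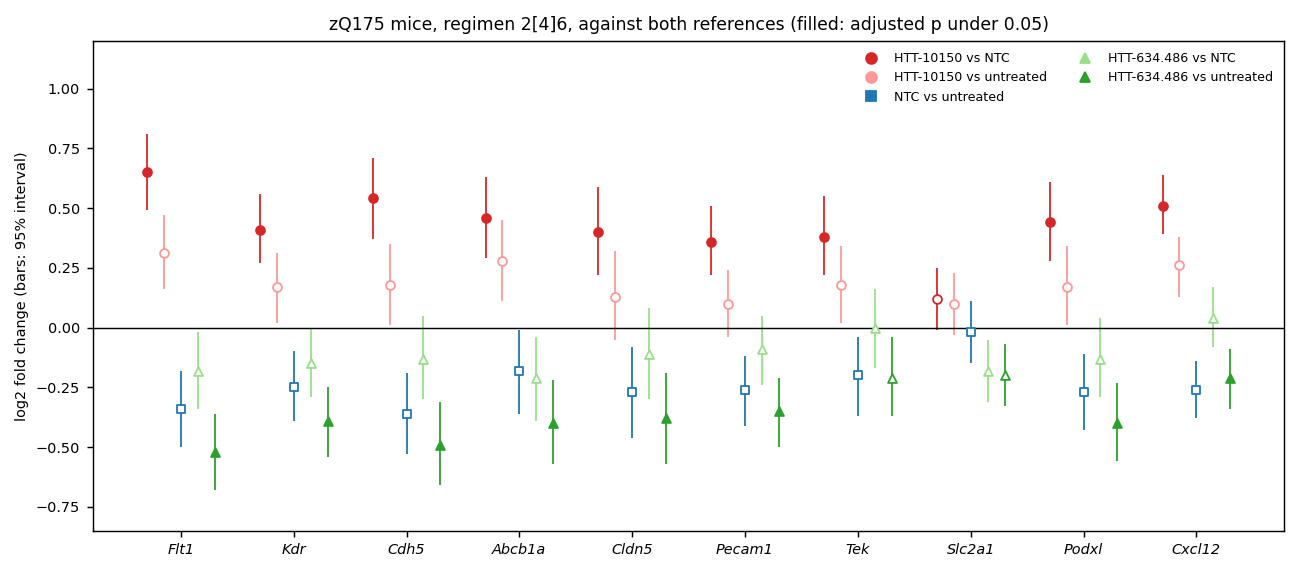
Log2 fold changes of the 10 genes in zQ175 mice of 2[4]6 against NTC and against untreated mice, with 95% intervals on the y axis and filled symbols where the adjusted p was under 0.05. HTT-10150 lies above NTC and the pair lies below untreated mice for each of the 10 genes, and NTC lies at -0.36 to -0.02 against untreated mice.

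In WT mice of 2[4]6, both siRNA treatments are described here against NTC, and NTC against untreated mice. The siRNA treatments were also fitted against untreated mice and against each other, and those WT contrasts are not described here. HTT-10150 against NTC called 0 of the 10 genes by edgeR, DESeq2 and limma-voom (0.0664% of all genes by edgeR, 1 member at an unadjusted p under 0.05), with log2 fold changes of -0.05 to 0.14. The pair against NTC called 0 (0.0121%, 2 at an unadjusted p under 0.05, 0 by either other tool), and NTC against untreated called 0 (0%, 0 at an unadjusted p under 0.05, 0 by either other tool). WT Flt1 ran from 38.6 through 45.7 to 55.2 CPM with HTT-10150 and from 38.6 through 42.1 to 52.85 CPM with NTC, overlapping almost wholly. The difference of the HTT-10150 effect between zQ175 and WT was itself tested: edgeR called 0 of the 10 genes and 0% of all genes, 9 members had an unadjusted p under 0.05, DESeq2 called 4 of the 8 for which it gave an adjusted p, and limma-voom called 0. Over all genes DESeq2 called 59 and limma-voom 0. The difference was positive for all 10 genes, from 0.15 for Slc2a1 to 0.57 ± 0.12 for Flt1 (log2, adjusted p = 0.0598). Fitted on the groups compared alone it called 4.

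By genotype, untreated zQ175 and WT mice of 2[4]6 differed in 0 of the 10 genes by edgeR (4.15% of all genes), with 1 at an unadjusted p under 0.05, 1 by DESeq2 and 0 by limma-voom. Over all genes DESeq2 called 823 and limma-voom 766. Among NTC mice, zQ175 levels were lower than WT for 5 genes, against 2.98% of all genes lowered and 5.23% changed in either direction. These were Kdr (-0.27 ± 0.07), Abcb1a (-0.28 ± 0.09), Pecam1 (-0.31 ± 0.07), Podxl (-0.28 ± 0.08) and Cxcl12 (-0.36 ± 0.06, log2). Pecam1 ran from 11.1 through 13.5 to 15.4 CPM in zQ175 NTC mice and from 14.1 through 16.4 to 18.85 CPM in WT NTC mice, and 5 of 8 zQ175 mice lay below every WT mouse. The count was 0 in females and 1 in males alone, 2 without libraries holding choroid plexus transcripts and between 1 and 4 with each replicate label left out.

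In the later regimens the siRNA treatments are described against NTC, and NTC against untreated mice. None of the 10 genes was called by edgeR in these comparisons. Contrasts of the siRNA treatments with untreated mice and with each other were also fitted there but are not described here. In 6[4]10 zQ175 mice, HTT-10150 against NTC called 0 of the 10 genes by edgeR, DESeq2 and limma-voom (0.0672% of all genes by edgeR, 4 members at an unadjusted p under 0.05), and the 10 log2 fold changes were all negative, from -0.28 for Podxl to -0.07 for Tek. Flt1 ran from 38.9 through 51.1 to 57.9 CPM with HTT-10150 and from 48.4 through 54.1 to 60.75 CPM with NTC. The pair against NTC called 0 (0.959%, 0 at an unadjusted p under 0.05) and NTC against untreated 0 (0%, 0 at an unadjusted p under 0.05), both also 0 by the other tools. In 2.6[8]10 zQ175 mice the same comparisons called 0 (0.871%, 0 at an unadjusted p under 0.05), 0 (2.04%, 2) and 0 (1.02%, 1), and DESeq2 and limma-voom called 0 in each. Flt1 there ran from 39.3 through 51.4 to 60.3 CPM with HTT-10150 and from 42.8 through 53.1 to 64.8 CPM with NTC. The groups overlapped in both regimens. In WT mice of 6[4]10, HTT-10150, the pair and NTC called 0 (0.0183%), 0 (0.0244%) and 0 (0%), each with 0 members at an unadjusted p under 0.05. In WT mice of 2.6[8]10 they called 0 (3.41%, 1 member at an unadjusted p under 0.05), 0 (0.751%, 2) and 0 (0.694%, 1), and for all 6 of these WT comparisons DESeq2 and limma-voom called 0.

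The HTT-10150 effect in zQ175 mice was higher in 2[4]6 than in 6[4]10 for 8 of the 10 genes, by a test of the difference in a fit of all 192 libraries, against 0.192% of all 16627 genes raised and 0.241% changed in either direction. Flt1 differed by 0.80 ± 0.11 on the log2 scale (adjusted p = 5.39e-07), Podxl by 0.72 ± 0.12 and Abcb1a by 0.66 ± 0.12, while Cldn5 (0.50, adjusted p = 0.0525) and Slc2a1 (0.29, adjusted p = 0.172) did not pass. DESeq2 gave an adjusted p for only 3 members and called 2, and limma-voom called 9. Over all genes they called 21 and 42. Against 2.6[8]10 the effect was higher for 6 genes, against 0.83% of all genes raised and 1.02% in either direction: Flt1 (0.76), Cdh5 (0.69), Abcb1a (0.47), Tek (0.44), Podxl (0.47) and Cxcl12 (0.47). Both counts were 0 in females alone, and in males alone they were 4 and 1. Without mice of replicate label 4 they were 3 and 1. Regimens differ in age at treatment, age at collection and number of treatments, and these cannot be told apart.

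**Figure D3:**
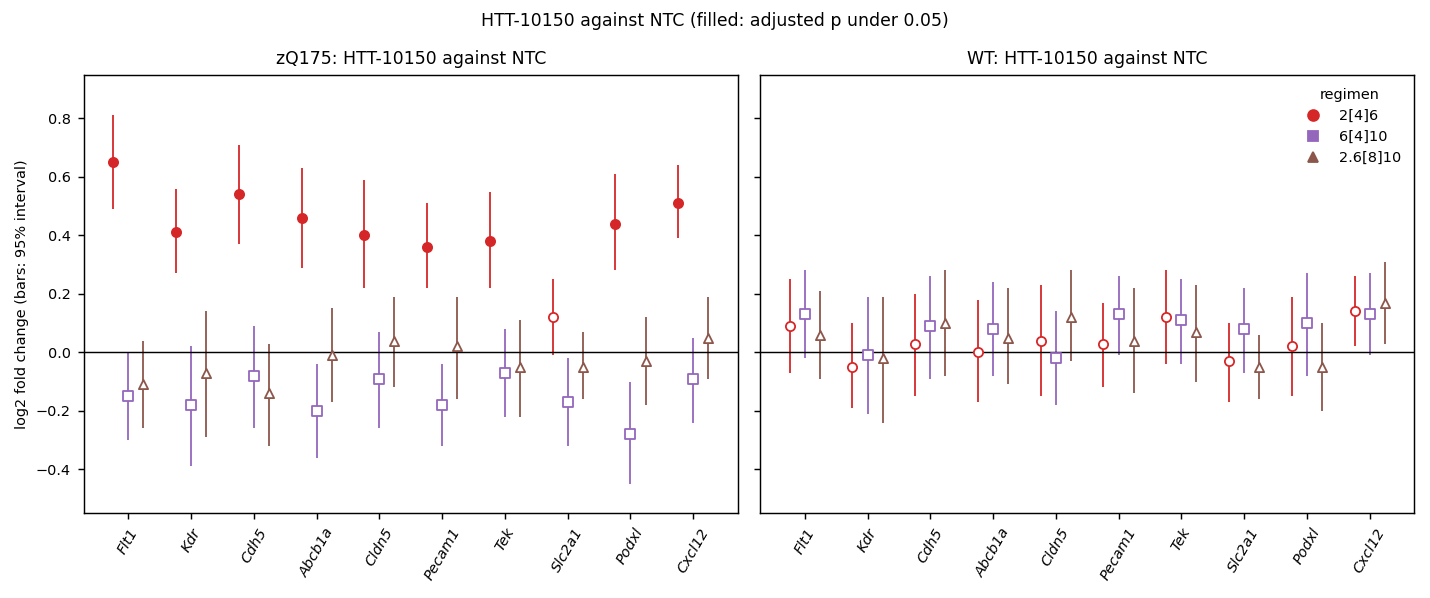
Log2 fold changes of HTT-10150 against NTC for the 10 genes in zQ175 (left) and WT mice (right), by regimen, with 95% intervals on the y axis and filled symbols where the adjusted p was under 0.05. The filled symbols are the 9 genes of zQ175 mice in 2[4]6, and in 6[4]10 the zQ175 values run from -0.28 to -0.07.

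By edgeR Cxcl12 was the member that differed between genotypes in both regimens collected at 10 months. As 1 of the 10 genes, it was no larger a share than the 10.4% to 14.7% of all genes called there. In 6[4]10 limma-voom called 2 members in untreated and in NTC mice, and DESeq2 called 2 in untreated mice. In untreated mice of 2.6[8]10 it ran from 35.6 through 43.5 to 45.95 CPM in zQ175 and from 51.7 through 63.9 to 66.7 CPM in WT mice. The genotypes did not overlap, and the log2 fold change was -0.51 ± 0.07 (adjusted p = 6.59e-07); it was the 1 member called there, against 11.1% of all genes. In NTC mice of that regimen it ran from 32.5 through 40.02 to 48.1 CPM against 49.85 through 52.85 to 59.4 CPM, again without overlap, a fold change of -0.37 ± 0.07 (log2, adjusted p = 0.000206; 10.4% of all genes called, and 1 member). In males alone the NTC value was -0.23 and did not pass (adjusted p = 0.174), and in females alone it was -0.51 and passed. In 6[4]10 it ran from 31.4 through 40.1 to 47.6 CPM in untreated zQ175 and from 42.1 through 53.9 to 60.25 CPM in untreated WT mice, with 5 of 8 zQ175 mice below every WT mouse. The log2 fold change there was -0.41 ± 0.07 (adjusted p = 2.87e-05; 11.5% of all genes called, and 1 member). In NTC mice of 6[4]10 the ranges, 36.9 to 43.2 and 44.2 to 57.85 CPM, did not overlap (-0.39 ± 0.07, adjusted p = 5.14e-05; 14.7% of all genes called, and 1 member). In 2[4]6 the untreated difference was -0.19 ± 0.06 and did not pass (adjusted p = 0.0624), with 4 of 8 zQ175 mice below the WT range.

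The untreated genotype difference was not shown to change between regimens: by edgeR 0 of the 10 genes were called for 2[4]6 minus 6[4]10 (0.0481% of all genes, 2 members at an unadjusted p under 0.05) and 0 for 2[4]6 minus 2.6[8]10 (0.138%, 1 member), and DESeq2 and limma-voom called 0 in both. For Cxcl12 the differences were 0.22 ± 0.10 and 0.31 ± 0.10 (log2). With HTT-10150 in 2[4]6, zQ175 mice ran from 45.6 through 57.4 to 66.6 CPM and WT mice from 53.4 through 55.1 to 62.96 CPM, and the ranges overlapped. With HTT-10150 in 2.6[8]10 they ran from 37.9 through 42.5 to 47.2 CPM in zQ175 and from 49.9 through 59.3 to 70.04 CPM in WT mice, without overlap. Of the genes for angiopoietin, VEGF and CXCL12 signalling listed with it, Angpt1, a ligand of the Tek receptor, was raised in untreated zQ175 mice of 2.6[8]10 (0.74 ± 0.12, adjusted p = 1.87e-05) and of 6[4]10 (0.58 ± 0.10, adjusted p = 2.4e-05), and it was the 1 of 14 genes tested in that list that passed in each, a share below that of all genes called there (11.1% and 11.5%). In untreated mice of 2.6[8]10 the summed markers of astrocytes and of neurons were also lower in zQ175. Those of microglia (456.6 to 541.7 CPM in zQ175 and 437.4 to 508.4 in WT mice) overlapped between genotypes. So did those of oligodendrocytes, of fibroblasts, and of pericytes with smooth muscle. The summed level of 12 astrocyte markers ran from 4656 to 5102 CPM in zQ175 and from 5457 to 6104 CPM in WT mice, and that of 12 neuron markers from 10255 to 11490 and from 11920 to 13882 CPM. Neither the astrocyte nor the neuron sum overlapped between genotypes, and none of these markers was at 0. In each list 5 of 12 were lowered, where 11.1% of all genes were called in either direction. In 6[4]10 the astrocyte and neuron sums did not overlap either, with 5 and 6 of 12 lowered, where 11.5% of all genes were called in either direction. The part of these in the Cxcl12 result was not tested. Leaving out libraries with choroid plexus transcripts left Cxcl12 at -0.48 ± 0.09 in 2.6[8]10 (adjusted p = 0.000845).

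**Figure D4:**
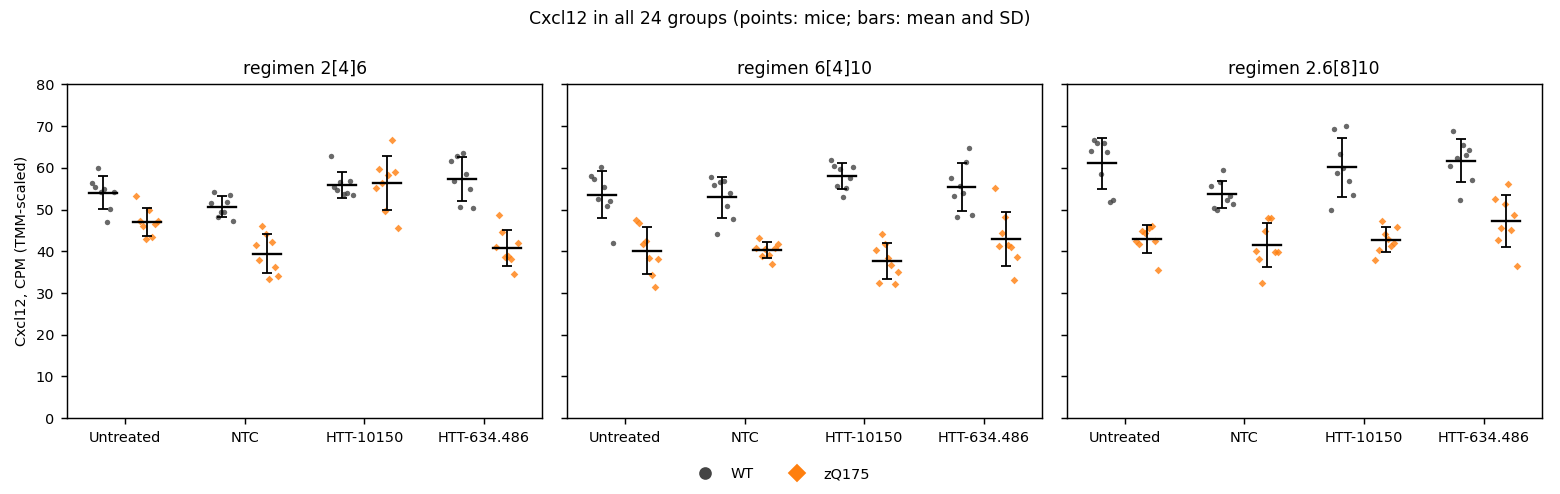
Cxcl12 in all 24 groups, 1 panel per regimen, with CPM from 0 on the y axis, WT mice as grey circles and zQ175 mice as orange diamonds. Bars are the mean and SD (n = 8); zQ175 means lie below WT means in 11 of the 12 pairs, and the exception is HTT-10150 in 2[4]6, at 56.3 against 55.95 CPM.

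Other genes of vessels were counted by list. With HTT-10150 against NTC, 2.51% of all genes were raised and 3.57% changed in either direction. In HTT-10150 against NTC in zQ175 mice of 2[4]6, 14 of 30 other endothelial markers rose and 0 fell, with a median log2 fold change of 0.30. They included Tie1 (0.60 ± 0.09), an orphan receptor that partners with Tek, Ptprb (0.58 ± 0.09), the endothelial phosphatase that acts on Tek, Eng (0.53 ± 0.08) and Cyyr1 (0.65 ± 0.11). Of 14 tested genes for VEGF, angiopoietin and CXCL12 ligands and receptors 2 rose, Tie1 and Flt4 (0.49 ± 0.13), with a median of 0.10; Nrp1 (0.14) and Pdgfb (0.13) did not pass. Barrier transport and junction genes had 4 of 21 raised, the amino acid carrier Slc7a5 (0.43 ± 0.06), the lactate carrier Slc16a1 (0.26 ± 0.06), Slco1a4 (0.34 ± 0.09) and the scaffold Tjp1 (0.18 ± 0.04), with a median of 0.13. Notch and tip cell genes had 2 of 15 raised, Dll4 (0.44 ± 0.10) and Notch4 (0.41 ± 0.10), with a median of 0.11, and Wnt and beta-catenin barrier genes 4 of 18, Sox7 (0.57 ± 0.13), Adgra2, Foxq1 and Apcdd1, with a median of 0.09. Genes of activated endothelium (10 tested, median 0.04) and hypoxia targets (16 tested, median 0.01) had 0 called by edgeR in either direction.

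For the pair against untreated mice, 16 of 30 other endothelial markers fell and 0 rose, with a median log2 fold change of -0.36. Of all genes 4.55% were lowered and 6.58% changed in either direction. Among the markers that fell were Cd93 (-0.57 ± 0.09), Ptprb (-0.50 ± 0.09), Tie1 (-0.49 ± 0.09) and Adgrf5 (-0.42 ± 0.08). Of the VEGF and angiopoietin list 3 of 14 fell, Flt4 (-0.71 ± 0.13), Tie1 and Nrp2 (-0.25 ± 0.06), with a median of -0.09. Plvap, a marker of fenestrated and leaky vessels, rose by 0.32 ± 0.08, and vessel leak was not measured. Libraries holding choroid plexus transcripts numbered 3 with the pair and 4 in untreated mice, and their part in the Plvap value was not tested.

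Markers of mural cells, the pericytes and smooth muscle cells that wrap vessels, moved with the 10 genes. With HTT-10150 against NTC 6 of 17 rose and 0 fell, with a median of 0.31, among them Rgs5 (0.43 ± 0.07), Abcc9 (0.40 ± 0.10), Notch3 (0.38 ± 0.10) and Atp13a5 (0.29 ± 0.07). Their summed level ran from 246.9 to 274.1 CPM with HTT-10150, from 183.8 to 233.2 with NTC, from 229.8 to 266.3 in untreated mice and from 179.7 to 231.5 with the pair, and none of the 17 was at 0. HTT-10150 and NTC mice did not overlap in this sum. Cytosolic ribosomal protein genes moved the other way, 19 of 32 lowered with HTT-10150 against NTC and 20 of 32 raised with the pair against untreated mice. Of all genes tested, 3.57% and 6.58% changed in either direction in these 2 comparisons. Choroid plexus markers had 0 of 9 called, with a median of -0.93, and summed levels of 39.5 to 4712 CPM with HTT-10150 and 60.3 to 4337 with NTC. Microglia had 2 of 12 raised (Fcrls and Olfml3), astrocytes 2 of 12 (Slc4a4 and Slc1a2), and oligodendrocytes 0 of 10, neurons 0 of 12, fibroblasts 0 of 11, macrophages and leukocytes 0 of 8 and red blood cell genes 0 of 5, the last with a median of -0.58. The part of these in the results on the 10 genes was not tested.

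**Figure D5:**
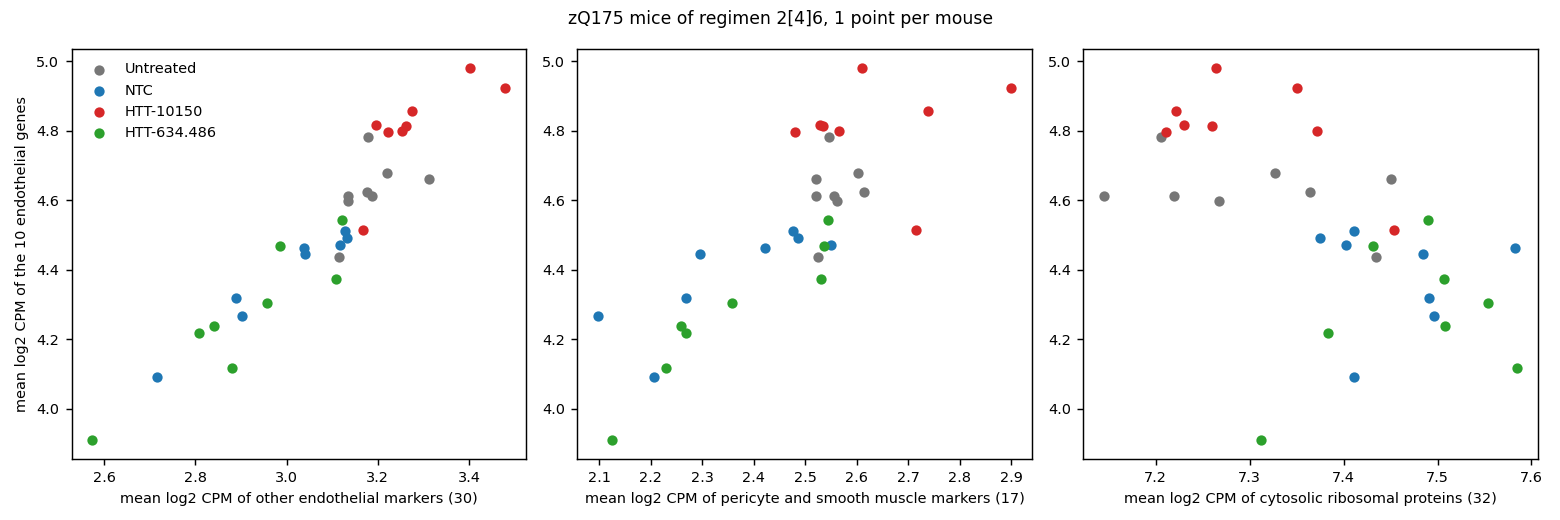
Mean log2 CPM of the 10 endothelial genes (y axis) against that of 30 other endothelial markers, 17 mural markers and 32 ribosomal protein genes (x axes), 1 point per zQ175 mouse of 2[4]6. HTT-10150 mice (red) have means of the 10 genes of 4.52 to 4.98, NTC mice (blue) 4.09 to 4.51, untreated mice (grey) 4.44 to 4.78 and mice given the pair (green) 3.91 to 4.54.

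A library measure moved with the groups as well. The slope of log2 CPM on exon length had a mean of 0.0422 ± 0.042 log2 units per doubling of length in untreated zQ175 mice of 2[4]6 (SD, n = 8), -0.0122 ± 0.027 with NTC, 0.041 ± 0.022 with HTT-10150 and -0.0157 ± 0.037 with the pair. The mitochondrial share was 7.33, 7.89, 7.06 and 8.10 percent of counts in the same order. With the slope added as a covariate, 4 of the 10 genes were called for HTT-10150 against NTC, where all genes called went from 591 to 30: Flt1 (0.57 ± 0.09), Kdr (0.40 ± 0.08), Cdh5 (0.48 ± 0.10) and Cxcl12 (0.47 ± 0.07). The other 6 had log2 fold changes of 0.21 to 0.43. The pair against untreated mice then had 1 called, Flt1 (-0.43 ± 0.09), HTT-10150 against the pair 9, all but Tek, and the regimen difference from 2.6[8]10 1.

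Over all 192 libraries the 10 genes varied together within groups. Deviations were taken from the mean of mice of the same group and sex. Pearson's r between those of 2 members ran, over 45 pairs, from 0.00 for Cldn5 and Slc2a1 to 0.70 for Flt1 and Abcb1a. It describes libraries that share scaling and depth. Slc2a1 had an r of 0.41 with the mean of the other 9, the lowest of the members, and 0.47 with astrocyte markers, the highest of the members. With the 30 other endothelial markers its r was 0.63, above that with astrocyte markers, and the lowest of the members there was Cldn5 at 0.42. Flt1 and Pecam1 had an r of 0.77 with the other 9, and Cldn5 0.46. The mean of the 10 genes had an r of 0.85 with other endothelial markers, 0.67 with mural markers, -0.31 with neuron markers and -0.20 with ribosomal protein genes. Of 14310 genes ranked by r with that mean, the 10 highest outside the members were Ptprb (0.80), Adgrf5 (0.79), Tie1 (0.75), the mural gene Rgs5 (0.68), Eng (0.67), Epas1 (0.66), Vwf (0.66), Adgrl4 (0.65), Itih5 (0.65) and Nos3 (0.63).

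Sex differences were small. In 2[4]6, females had higher Kdr (14.4 ± 1.89 against 12.7 ± 1.955 CPM, SD, n = 32 each, log2 difference 0.19, adjusted p = 0.000532) and Cldn5 (28.6 ± 4.94 against 24.55 ± 3.797 CPM, 0.22, adjusted p = 0.00218), 2 of the 10 genes against 6.71% of all genes. Without libraries holding choroid plexus transcripts 0 were called. In 6[4]10 Flt1 was lower in females (49.4 ± 6.31 against 54.5 ± 5.15 CPM, -0.14, adjusted p = 0.0486), 1 of 10 against 1.15%, and it lost its call without the libraries at odds with their labelled sex. In 2.6[8]10 edgeR, DESeq2 and limma-voom called 0 (1.68% of all genes by edgeR), and 0 members had an unadjusted p under 0.05.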

How the data were processed

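Poly(A)-selected RNA of dissected hippocampus was sequenced on Illumina instruments, 1 library per mouse. The deposited table holds RSEM expected counts per gene for GRCm38, per the submitters' processing notes; all values are whole, and aligner, versions and annotation release were not given in the sources used here. Of 41135 features, 7 that name no mouse gene (6.85e-06 percent of counts) were left out. The counts were filtered with filterByExpr, scaled with TMM and tested with edgeR 4.0.16 (quasi-likelihood), with 64 libraries, 8 groups and sex per regimen, or 24 groups and sex over all 192 libraries for differences between regimens. P-values were adjusted by Benjamini-Hochberg over all genes tested, with a threshold of 0.05, and measure the spread between mice. Log2 CPM used a prior count of 2. DESeq2 1.42.0 and limma 3.58.1 (voom), RLE scaling, no filter, no sex term, other covariates, single sexes, blocks and left-out libraries were alternatives. The scripts were tested on simulated data. All 10 genes were counted in every comparison described, and some contrasts that were fitted are not described. Of other lists up to 4 members of smallest adjusted p were named, and the 10 genes of highest r with the members. The members and lists were chosen with earlier results of these data known. Promoter sequences came from RefSeq (GRCm38.p6).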

Additional observations from a re-analysis of the deposited data

Results flagged for a closer look

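Within groups of 8 mice, 19 values of the 10 genes stood apart from the rest of their group by Dixon's test at the 95% level, out of 240 gene and group combinations; chance gives about 1 in 20. Several came from the same library. Female_3 of the WT NTC group in 2.6[8]10 had Kdr at 21.11, Tek at 15.85 and Podxl at 37.95 CPM. Female_1 of the WT HTT-10150 group in 2[4]6 had Cldn5 at 35.61, Podxl at 33.96 and Cxcl12 at 62.96 CPM. Male_1 of the zQ175 group given HTT-634 with HTT-486 in 6[4]10 had Flt1 at 63.98 and Abcb1a at 32.56 CPM. Male_3 of the zQ175 NTC group in 6[4]10 had Slc2a1 at 119.9 and Podxl at 40.4 CPM. Male_2 of the WT group given the pair in 2.6[8]10 had Kdr at 12.39 and Pecam1 at 15.08 CPM.

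The others were single values. Kdr was 16.93 CPM in female_1 of the WT group given the pair in 2[4]6. Cdh5 was 8.124 CPM in female_4 of the untreated WT group and 6.665 CPM in female_3 of the WT group given the pair, both in 6[4]10. Slc2a1 was 101.6 CPM in female_1 and Cxcl12 was 35.6 CPM in female_4 of the untreated zQ175 group in 2.6[8]10. Podxl was 19.25 CPM in male_2 of the WT NTC group in 6[4]10 and 22.61 CPM in female_4 of the zQ175 group given the pair in 2.6[8]10. None of the 19 was in a zQ175 group of 2[4]6.

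The effect of HTT-10150 against NTC in zQ175 mice differed between regimens by a test of the difference (edgeR, all 192 libraries). Between 2[4]6 and 6[4]10 the log2 difference was 0.80 for Flt1, 0.60 for Kdr, 0.63 for Cdh5, 0.66 for Abcb1a, 0.55 for Pecam1, 0.46 for Tek, 0.72 for Podxl and 0.61 for Cxcl12. Between 2[4]6 and 2.6[8]10 it was 0.76 for Flt1, 0.69 for Cdh5, 0.47 for Abcb1a, 0.44 for Tek, 0.47 for Podxl and 0.47 for Cxcl12.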

How the results depend on the processing

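Over 35 comparisons, 584 of 648 recomputed counts of called genes stayed within 1.5 times of the reported one and 64 moved. Of 1100 recomputed fold changes, 922 kept their call, 0 reversed and the others lost it. Replicate labels were not shown to pair mice. Same-label mice had a mean r of 0.044, 0.064 and 0.070 in 2[4]6, 6[4]10 and 2.6[8]10, against -0.014, -0.021 and -0.023 for other pairs. Their lowest r was -0.534. Mice sharing the number in the library name had a mean r of 0.068, 0.139 and 0.151, against -0.006, -0.012 and -0.013 for other pairs, with a lowest r of -0.476. Mice sharing that number were of the same genotype, so genotype differences cannot be told apart from differences between these numbers. With the replicate block, HTT-10150 against NTC in zQ175 mice of 2[4]6 called 9, and NTC against untreated, zQ175 against WT untreated and the zQ175 minus WT difference each called 1 instead of 0 in 2[4]6. Leaving out libraries with choroid plexus transcripts and adding the length slope were chosen after seeing the data. The causes of the following changes were not tested. Shares of all genes called in these fits are not given below, so the counts do not show whether the members changed more than other genes did.

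For zQ175 mice of 2[4]6, HTT-10150 against NTC (9) called 2 in females, 4 with the length slope and 4 to 9 with a replicate label left out. NTC against untreated (0) called 4 by DESeq2, 1 in the fit of all libraries and 0 to 5 with a replicate label left out. The pair against untreated (8) called 0 in females, 2 without choroid libraries, 1 with the slope and 2 to 7 with a label left out, and HTT-10150 against the pair (10) called 1 in females. For zQ175 against WT in 2[4]6, untreated mice (0) called 1 by DESeq2, with the slope and with only the groups compared. NTC mice (5) called 3 without the filter, 0 in females, 1 in males, 2 without choroid libraries, 3 with the slope and 1 to 4 with a label left out. The zQ175 minus WT difference (0) called 4 by DESeq2, with the library-name number as a block and with only the groups compared, 1 in the fit of all libraries and 0 to 1 with a label left out.

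For zQ175 against WT in 6[4]10, untreated mice (1) called 2 by DESeq2, limma-voom, with the slope and with only the groups compared, and 1 to 2 with a label left out. NTC mice (1) called 2 by limma-voom and with only the groups compared, and 1 to 2 with a label left out. In 2.6[8]10 NTC mice (1) called 2 in females, 0 in males, 2 with the slope and 1 to 2 with a label left out, and the pair against NTC in zQ175 mice (0) called 0 to 1 with a label left out. Sex in 2[4]6 (2) called 0 without choroid libraries and 1 to 2 with a label left out. Sex in 6[4]10 (1) called 0 with RLE, without the filter, without sex-mismatched or choroid libraries, and 0 to 1 with a label left out. The difference from 6[4]10 (8) called 2 by DESeq2, 0 in females, 4 in males and 3 to 9 with a label left out. That from 2.6[8]10 (6) called 3 without the filter, 0 in females, 1 in males, 1 with the slope, 3 with only the groups compared and 1 to 6 with a label left out.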
